A study of Mus musculus with 2 samples.

Results

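The clustered protocadherin genes are the 57 protein-coding genes on mouse chromosome 18 whose GENCODE M21 symbols begin with Pcdha, Pcdhb or Pcdhg, of 21938 protein-coding genes on the autosomes, X and Y. They were chosen by symbol and position and not by any measured value. They comprise 14 alpha genes, 22 beta genes and 21 gamma genes, all on the plus strand. Accessible chromatin was mapped by DNase-seq, which sequences the ends of fragments cut by the enzyme DNase I in nuclei, in right cerebral cortex of female adult B6CASTF1/J mice aged 18 to 20 months. These animals carry a C57BL/6J and a CAST/EiJ genome each, as the F1 generation of a cross between those strains. The series has 1 group of 2 biological replicates with no treatment and no control, and the labels give both replicates the same donor identifier without saying whether they came from separate animals. The spread between them may therefore be technical, and no test over samples was possible.

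Clustered protocadherins are cell-surface adhesion proteins that bind the same isoform on a neighbouring neuron, and the combination a neuron carries serves as its identity label in self-avoidance. Each alpha and gamma gene has its own promoter and variable exon, spliced to constant exons shared by its cluster, whereas each beta gene is encoded by a variable exon alone. Most isoforms are known to be switched on in a scattered way, a few per neuron, while the C-type isoforms (Pcdhac1, Pcdhac2, Pcdhgc3, Pcdhgc4 and Pcdhgc5) are known to be used more widely. Promoter choice is known to involve the insulator protein CTCF and the cohesin ring, which bring promoters to distant enhancers. Tissue was assayed in bulk, so fewer cells using a promoter and weaker opening per cell cannot be told apart, and the parental alleles were not separated.

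Each library has a shorter and a longer list of peaks, each peak carrying a signal value that the authors deposited. A promoter window reached 500 bp to each side of a gene's start site, and the strongest peak touching the window gave the promoter value. The shorter lists held 86601 peaks in replicate 1 and 88482 in replicate 2, and the longer lists 142029 and 143055. All values were whole multiples of a step within each library, which, read as reads scaled to depth, gives an inferred depth of 201 M (mega) reads in replicate 1 against 112 M in replicate 2. The median peak had 0.721 in replicate 1 and 0.999 in replicate 2, so values ran lower in the deeper library. Of the marker lists, the excitatory neuron genes Camk2a, Neurod6 and Tbr1 had a promoter peak in both shorter lists. So did 2 of 5 astrocyte genes, 2 of 5 oligodendrocyte genes and 2 of 4 cerebellar granule cell genes. None of the 6 inhibitory neuron, 5 microglia, 4 endothelium or 4 hepatocyte genes had one. The share over all protein-coding genes was 52.2%.

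Few clustered protocadherin promoters were called accessible, and most of those were C-type. A peak in both shorter lists was found at 5 of the 57 start sites (8.77%), beside 52.2% of all protein-coding genes. The 5 were Pcdhac1, Pcdhac2, Pcdhga12, Pcdhgc3 and Pcdhgc5, so 4 of the 5 C-type genes and 1 of the other 52 had a shared peak. By cluster, 2 of 14 alpha, 0 of 22 beta and 3 of 21 gamma genes did. A peak in replicate 1 only was found at 1 start site and in replicate 2 only at 9, beside 1.61% and 2.42% of all genes, and 42 had none. The median value over the 57 genes was 0 in both replicates, against 0.582 in replicate 1 and 0.847 in replicate 2 over all genes.

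**Figure D1:**
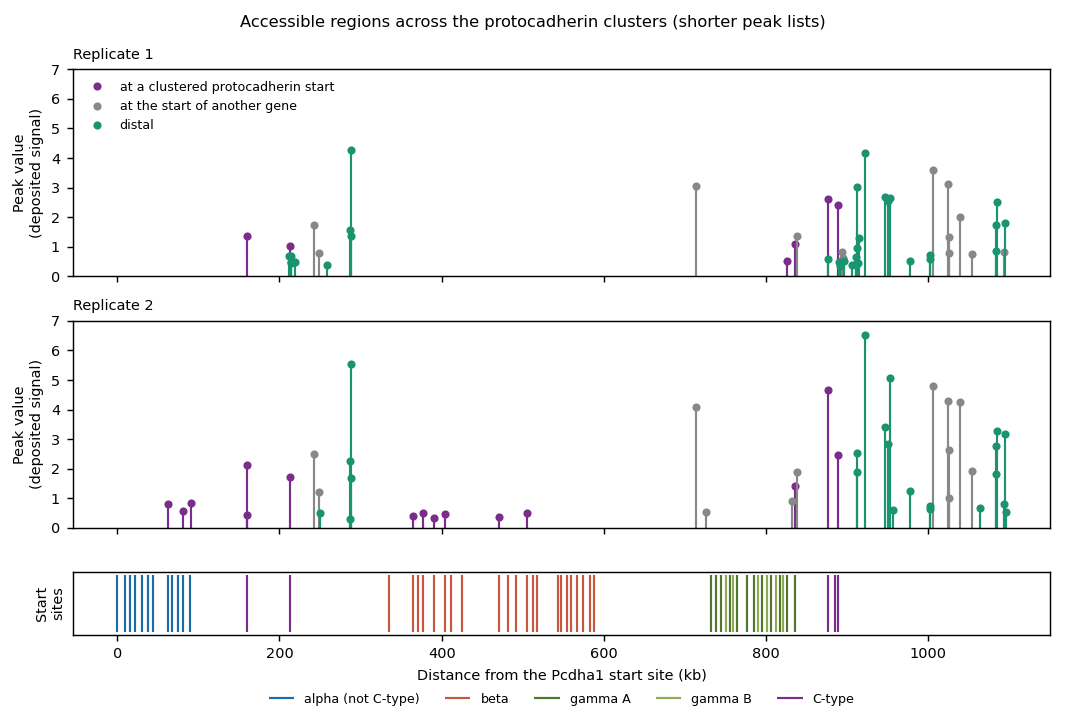
Peak values (deposited signal, linear axis) from the shorter lists of replicate 1 (top) and replicate 2 (middle) against distance in kb from the Pcdha1 start site, coloured by whether the region lies at a clustered protocadherin start, at the start of another gene or distal to both. Ticks in the bottom panel are the 57 start sites by subgroup. Tall distal peaks stand after the alpha cluster and after the gamma cluster, few peaks mark the start sites between, and the 6 peaks at beta start sites appear in replicate 2 only.

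Among C-type genes, Pcdhgc3 had the highest promoter value. Its peak measured 2.61 in replicate 1 and 4.67 in replicate 2, 3.64 ± 1.46 (SD, n = 2). These values correspond to 526 inferred reads in replicate 1 (exact 95% Poisson interval 482 to 573, counting error only) and 524 in replicate 2 (480.1 to 571). The depth-scaled value was thus higher in replicate 2, while the lowest base-level FDR of the cut rate was lower in replicate 1, at 8.27e-58 against 9.45e-17 in replicate 2. An exon of the gene BC037039 overlaps this region, and DNase cuts carry no strand.

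Pcdhgc5 followed, with 2.41 in replicate 1 and 2.46 in replicate 2, 2.43 ± 0.0392 (SD, n = 2). Both libraries placed its peak before the start site, from -332 to -53 bp relative to the start in replicate 2. Pcdhac1 had 1.35 and 2.12 in replicates 1 and 2, 1.73 ± 0.548, with a peak centred on the start. Pcdhac2 had 1.01 and 1.71, 1.36 ± 0.497, and its peak of 560 bp in replicate 1 reached well into the exon. For scale, the median over all genes with a peak in both shorter lists was 2.20 in replicate 1 and 3.22 in replicate 2. Only Pcdhgc3 exceeded that median in both replicates.

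Pcdhgc4 was the C-type gene missing from both shorter lists. In the longer lists it had 0.726 in replicate 1 and 1.28 in replicate 2, from 146 and 143 inferred reads. The signal lay after the annotated start and before the start codon, which is 454 bp after that start. The lowest FDR was 268 bp after the start in replicate 1 (0.000741) and 282 bp after it in replicate 2 (0.000933). Only 25 bases of its window in replicate 1 and 4 in replicate 2 had an FDR of 0.001 or less, against 468 and 891 at Pcdhac1.

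The remaining gene with a shared peak was Pcdhga12, the last gamma A gene, with 1.09 in replicate 1 and 1.40 in replicate 2, 1.24 ± 0.220 (SD, n = 2). Its peak did not cover the annotated start site but lay 221 to 440 bp after it in replicate 2. The lowest FDR fell 329 bp after the start in both libraries. That start is 537 bp before the start codon, against 121 to 210 bp in the other gamma A genes. Pcdhga12 thus had its peak between the annotated start and the start codon. A further shared region within its variable exon, chr18:37768201-37768420 (mm10), had 1.37 and 1.89 and lay within 500 bp of a start site of Gm26672. Differences between replicates were centred on the median over the 11441 genes with a peak in both, which was -0.50 as log2 of replicate 1 over replicate 2. Centred this way, Pcdhgc5 (0.47) and Pcdhga12 (0.14) were relatively higher in replicate 1, and Pcdhgc3 (-0.34) and Pcdhac2 (-0.26) relatively lower there.

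**Figure D2:**
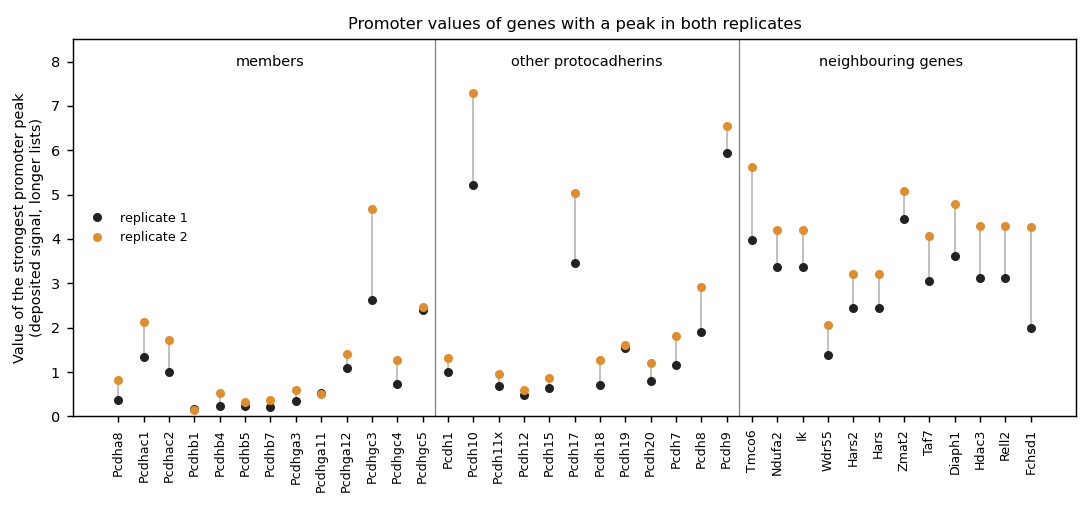
Value of the strongest promoter peak (deposited signal, longer lists, linear axis) in replicate 1 (black) and replicate 2 (orange) for the 13 clustered protocadherins with a peak in both, for the 12 other protocadherins, and for the 12 neighbouring genes with a shared peak in the shorter lists. Grey lines join the replicates of a gene. Pcdhgc3 and Pcdhgc5 reach the range of the neighbours, and the beta genes lie near the bottom.

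Outside the C-type genes and Pcdhga12 the values were low and mostly from replicate 2. The alpha genes with a shorter-list peak in replicate 2 only were Pcdha12 (0.856), Pcdha8 (0.811) and Pcdha11 (0.571). The Pcdha12 peak began 432 bp after the start and lay within 500 bp of a start site of Gm10545. In the longer list of replicate 2 the Pcdha8 peak began 430 bp after the start, and the Pcdha11 peak covered the start itself. The shorter-list Pcdha8 peak was narrower, at chr18:36992861-36992971 (mm10), and began farther from the start. The beta genes with a peak in replicate 2 only were Pcdhb4 (0.517), Pcdhb12 (0.517), Pcdhb6 (0.464), Pcdhb2 (0.410), Pcdhb9 (0.374) and Pcdhb5 (0.330). No beta gene had a shorter-list peak in replicate 1. Pcdhga11 was the gene with a peak in replicate 1 only, at 0.527, and that region also lies within 500 bp of a start site of Gm26672. No gamma B gene had a shorter-list peak in either replicate. Pcdhgb8, annotated as a polymorphic pseudogene and so not counted among the 57, had a peak of 0.909 in replicate 2 only.

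The longer lists raised the shared count to 13 of 57 (22.8%), beside 56.7% of all genes. The 8 added genes were Pcdha8, Pcdhb1, Pcdhb4, Pcdhb5, Pcdhb7, Pcdhga3, Pcdhga11 and Pcdhgc4. All 5 C-type genes were then shared, against 8 of the other 52. A longer-list peak in replicate 1 only was found at 2 start sites (Pcdhga5 and Pcdhgb7) and in replicate 2 only at 15, beside 1.85% and 2.37% of all genes, and 27 had none. Of the 10 longer-list peaks at beta start sites in replicate 2, the lowest had 0.152 and the highest 0.517, from 17 to 58 inferred reads. The 4 beta peaks in replicate 1 ranged between 0.159 and 0.244, from 32 to 49 inferred reads. These are small counts, and a beta promoter without a peak was not detected here rather than shown to be closed.

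Base-level FDR values, which the deposited files list only below 0.05, gave a finer view of start sites without a peak. At least 1 such base lay in the window of 16 members in replicate 1 (28.1%) and 32 in replicate 2 (56.1%), against 59.8% and 60.4% of all genes. The count was 15 in both libraries together, beside 58% of all genes. Replicate 1 alone listed 1 further member, Pcdhga5, and replicate 2 alone listed 17, beside 1.72% and 2.35% of all genes. At an FDR of 0.001 or less there were 8 members in replicate 1 and 16 in replicate 2, against 54.8% and 55.7% of all genes. Of these, 6 were common to both, the 5 C-type genes and Pcdhga12, beside 53.2% of all genes. Across the 57 genes the Spearman correlation of the lowest FDR between replicates was 0.57, as a description, with unlisted genes tied.

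**Figure D3:**
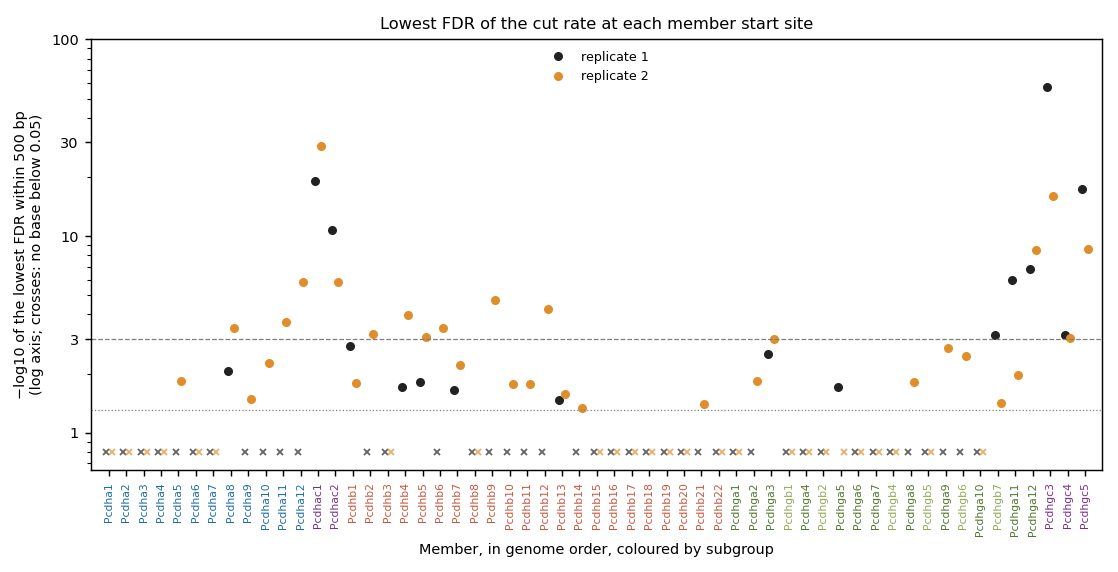
The −log10 of the lowest FDR within 500 bp of each start site (log axis) for the 57 genes in genome order, replicate 1 in black and replicate 2 in orange. Crosses mark genes with no base below 0.05, the dotted line stands at 0.05 and the dashed line at 0.001. Pcdhac1 and Pcdhgc3 stand highest and Pcdhgc4 lies at the dashed line in both libraries, most beta points belong to replicate 2, and Pcdhb15 to Pcdhb22 are crosses except Pcdhb21 in replicate 2.

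The listed and unlisted genes fell into runs along the clusters. In the alpha cluster, none of Pcdha1 to Pcdha4, Pcdha6 and Pcdha7 had a listed base in either replicate, and Pcdha5 had listed bases only in replicate 2, with the lowest FDR 404 bp after its start. All 5 of Pcdha8 to Pcdha12 were listed in replicate 2, and Pcdha8 also in replicate 1. At Pcdha8 (493 bp after the start in replicate 2, 500 bp in replicate 1) and Pcdha12 (497 bp in replicate 2) the lowest FDR lay at the window edge. At Pcdha9, Pcdha10 and Pcdha11 it lay 83, 12 and 36 bp before the start in replicate 2. In the beta cluster the order ran the other way: of Pcdhb1 to Pcdhb14, 5 were listed in replicate 1 and 12 in replicate 2, the exceptions being Pcdhb3 and Pcdhb8. Of the 8 genes Pcdhb15 to Pcdhb22, none was listed in replicate 1 and 1 in replicate 2 (Pcdhb21, FDR 0.039). In the gamma cluster 9 genes were listed in neither library: Pcdhga1, Pcdhgb1, Pcdhga4, Pcdhgb2, Pcdhga6, Pcdhga7, Pcdhgb4, Pcdhgb5 and Pcdhga10. The 6 gamma genes from Pcdhgb7 to Pcdhgc5 were all listed in both. These divisions were drawn after the values were seen and carry no test.

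Read mappability was checked beside that pattern through the share of 36-base words of each window that occur once in the reference genome. The windows of Pcdhb15 to Pcdhb22 were unique for 99.9% or more of their words, while those of Pcdhb1 to Pcdhb14 ranged between 85.4% and 100%. The Pcdha1 to Pcdha7 windows ranged between 72.6% and 83.7%, and the Pcdha8 to Pcdha12 windows between 72.8% and 92.5%. From 150 bp before to 50 bp after the start, all words were unique in 55 of 57 members, including all 24 listed in neither replicate. Pcdhgb6 and Pcdhgb7, at 80.5%, were the exceptions.

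**Figure D4:**
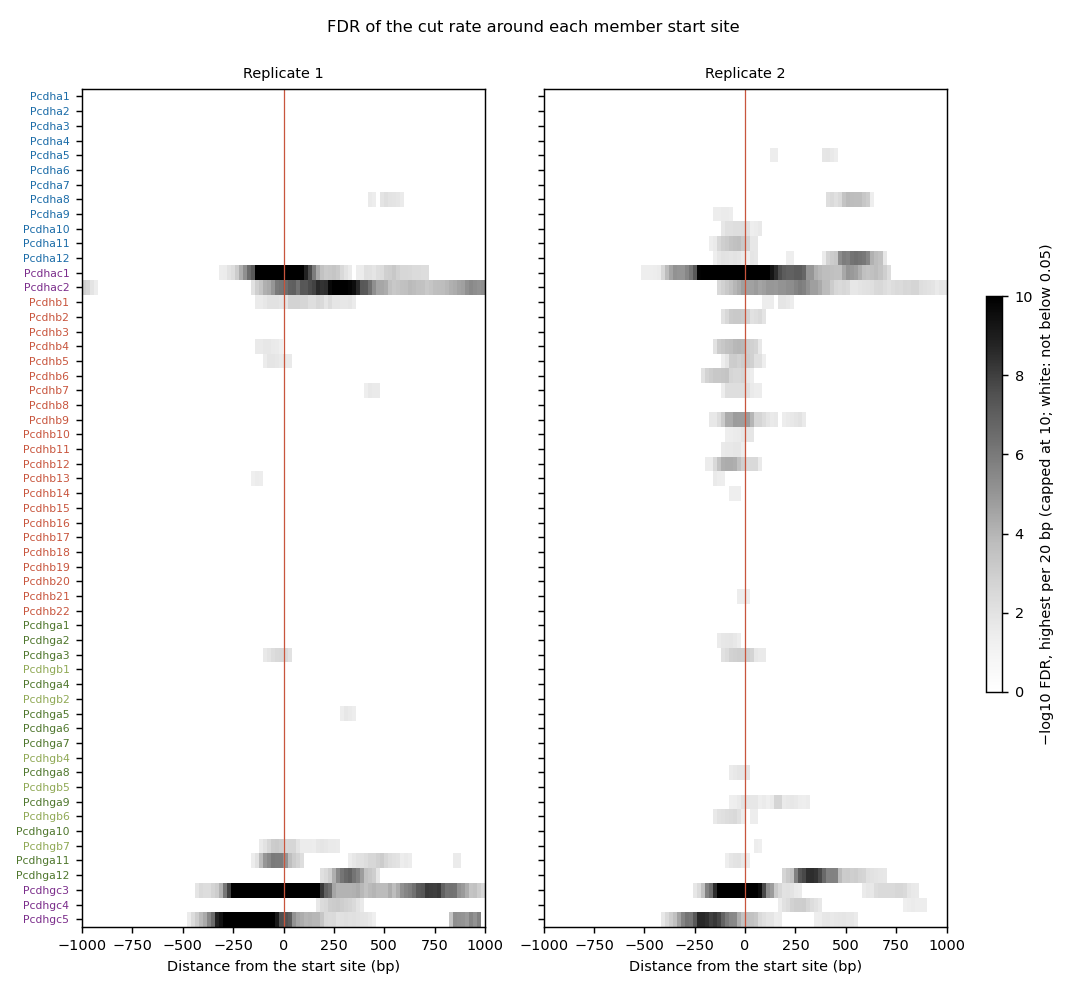
Heat map of −log10 FDR in bins of 20 bp from 1000 bp before to 1000 bp after each of the 57 start sites, in genome order, for replicate 1 (left) and replicate 2 (right). White means no base below 0.05 and the scale is capped at 10. C-type rows other than Pcdhgc4 are dark over long stretches, and many pale beta segments in replicate 2 lie just before or across the start site.

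The position of the weaker signals was near that of genes at large. For the 27 members other than C-type with a listed base in replicate 2, the lowest FDR lay at a median of 29 bp before the start, and 19 of them (70.4%) fell between 150 bp before and 50 bp after it. The share over all genes was 62.4% in that replicate. In replicate 1 there were 11 such members, with 6 (54.5%) in that stretch, against 63.1% of all genes. Footprints are short protected stretches inside accessible chromatin, here at a deposited threshold of 0.01. They lay wholly within the windows of 13 members in replicate 1 and 18 in replicate 2, against 56.2% and 55.7% of all genes. C-type genes held 24 of the 43 member footprints in replicate 1 and 22 of 42 in replicate 2. Their median was 4 per gene in both, against 2 over all genes, those without a footprint included. Over the 12 protocadherins outside the clusters the median was 6 in replicate 1 and 6.5 in replicate 2.

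Many promoters of the clusters, but not all, are known to share a conserved element with the core letters CGCT. Only these core letters were counted here, so a match does not show that the full element is present. These letters, on either strand, were present between 250 bp before and 50 bp after the start in 55 of 57 members (96.5%), against 67.2% of all genes. Pcdhb22 and Pcdhga12 lacked them in that stretch, though both had them within 500 bp of the start. Their annotated starts lie 610 and 537 bp before the start codon, farther than in any other member. The occurrence nearest before the start lay at a median of 56 bp upstream, with quartiles at 71.5 and 36.5 bp. It was present at 4 of the 5 genes with a shared peak and at 41 of the 42 without any shorter-list peak. Of 16 occurrences in the 5 genes with a shared peak, 4 lay wholly inside a footprint in replicate 1 and 4 in replicate 2, at Pcdhac1, Pcdhgc3 and Pcdhgc5. A longer CTCF consensus of 12 letters, with at most 1 mismatch, matched within 500 bp of the start of 3 members (5.26%) and of 11.9% of all genes.

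Base composition separated the C-type genes from the rest without overlap. GC content ranged between 50.4% and 58.04% in the 5 C-type windows, and between 33.8% and 49.95% in the other 52. The median was 44.9% over all members, against 54.7% over all genes. The ratio of observed to expected CpG was much more alike, with a median of 0.564 in members against 0.552 over all genes. Within the clusters it was lowest in beta genes (median 0.378), and it was 0.418 for Pcdhb1 to Pcdhb14 and 0.269 for Pcdhb15 to Pcdhb22. The relation of composition to accessibility was not tested.

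Away from start sites, the locus held strong accessible regions. From the Pcdha1 start to 200 kb past the end of the gamma cluster, 68 merged regions were found, of which 31 were shared by both replicates. Of these, 5 were at member start sites, 10 at start sites of other genes and 16 were distal to any start. None of the 16 lay within the beta cluster, 3 were between the alpha and beta clusters and 13 were downstream of the gamma cluster. The mean value of the 16 had a median of 2.37, against 0.930 over 46328 shared distal regions of the genome, and 13 of the 16 exceeded that genome median. The replicate 2 value was the higher in 15 of 16, as in 81.2% of shared distal regions of the genome.

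The strongest region between the alpha and beta clusters was chr18:37218221-37218480 (mm10), inside no gene but read-through gene models that span the clusters, with its midpoint 30.7 kb after the end of the alpha cluster. It measured 4.27 in replicate 1 and 5.54 in replicate 2, 4.90 ± 0.896 (SD, n = 2), which was the 99.7th percentile of shared distal regions. It held 5 footprints in each replicate and 1 CTCF consensus match, on the minus strand, the reverse of the direction of the genes. Next to it stood chr18:37217361-37217600 (1.57 and 2.25 in replicates 1 and 2, also with 1 minus-strand match) and chr18:37217841-37218100 (1.36 and 1.69, with none). An alpha cluster enhancer known as HS5-1 is described between these clusters, and its published coordinates were not used here. All 3 regions were higher in replicate 2, and the first exceeded every clustered protocadherin promoter in both replicates.

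Downstream of the gamma cluster the strongest region was chr18:37852141-37852400, in an intron of Diaph1, which encodes an actin-nucleating formin. Its value was 4.18 in replicate 1 and 6.53 in replicate 2, 5.36 ± 1.66 (SD, n = 2), at 10.4 kb after the end of the cluster. It carried 2 CTCF consensus matches, both on the minus strand. Further introns of Diaph1 held chr18:37883561-37883780 (2.64 and 5.06, mean 3.85 ± 1.71, with 1 minus-strand match) and chr18:37877241-37877580 (2.69 and 3.42, mean 3.05 ± 0.514, with none). The fifth strongest, chr18:38014901-38015180, was intergenic at 173 kb after the cluster and had 2.51 and 3.27 in replicates 1 and 2, 2.89 ± 0.536. Of the 16 distal regions, 5 had a CTCF consensus match, in 4 on the minus strand and in 1 on the plus strand. Over all shared regions of the locus the share was 7 of 31 (22.6%), against 17.4% of 65097 in the genome, and none of the 5 regions at member starts had a match.

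Inside the alpha transcription unit, after the last variable exon, both shared regions lay at start sites of non-member genes. The region chr18:37172281-37172540 at Gm38097 had 1.72 in replicate 1 and 2.50 in replicate 2, above Pcdhac1 and Pcdhac2 in both. The region chr18:37178281-37178700 at Gm10544 had 0.790 and 1.22.

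The replicates differed in opposite ways along the locus. From past the Pcdhgc5 promoter region, within its variable exon, to 5 kb past the gamma cluster there were 12 merged regions, a stretch chosen after its values were seen. Of these, 10 were in the shorter list of replicate 1 only, none was in replicate 2 only and 2 were shared. Of 106187 merged regions in the genome, 18.6% were in replicate 1 only, 20.1% in replicate 2 only and 61.3% shared. The 10 had values between 0.358 and 1.29 in replicate 1. In replicate 2, 7 of the 10 had no base below an FDR of 0.05, and 2 had a longer-list peak. The largest, chr18:37844421-37844640 within Diaph1, had a −log10 of the lowest FDR of 29.6 in replicate 1 and 2.48 in replicate 2. Beside them the shared region chr18:37842681-37842960 was the distal region with the higher value in replicate 1, 3.03 against 2.54 in replicate 2. The Pcdhac2 exon also held 3 regions with a shorter-list peak in replicate 1 only, at 0.482, 0.671 and 0.462. All 3 had bases below an FDR of 0.05 in replicate 2, with a −log10 of the lowest FDR of 2.53, 2.68 and 1.61. Beta start sites were the reverse, with 6 shorter-list peaks in replicate 2 only, of which 2 had a longer-list peak in replicate 1. Replicate 1 was the more deeply sequenced library by inferred reads, and the part of depth in either pattern was not tested.

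**Figure D5:**
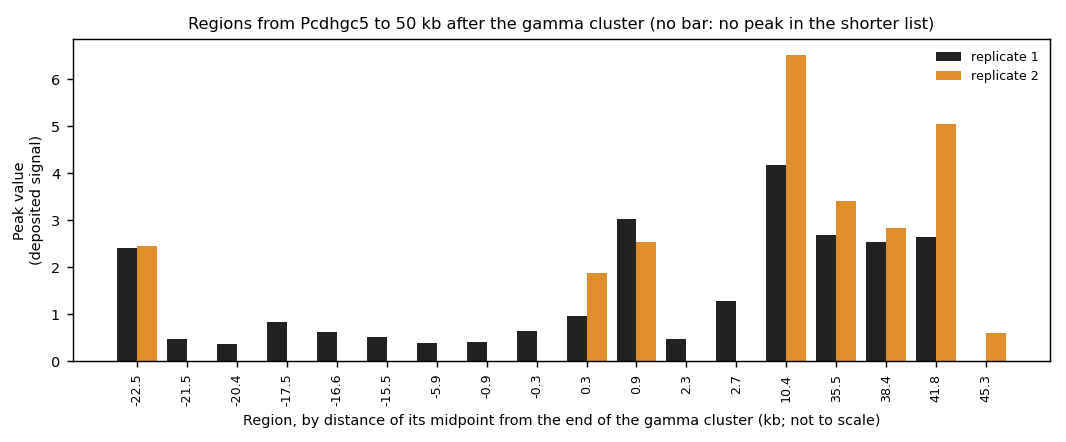
Peak values (deposited signal, shorter lists, axis from 0) of the regions from the Pcdhgc5 start to 50 kb after the gamma cluster, in order along the chromosome, replicate 1 in black and replicate 2 in orange; a missing bar means no peak in that list. Between the Pcdhgc5 start and the Diaph1 introns most regions have a bar in replicate 1 only, with values up to 1.29.

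Other protocadherins, which lie outside the clusters and have ordinary single promoters, were mostly accessible. Of 12, 10 had a peak in both shorter lists (83.3%) and 12 in both longer lists, beside 52.2% and 56.7% of all genes. Pcdh9 (5.94 in replicate 1 and 6.55 in replicate 2) and Pcdh10 (5.21 and 7.30) were the highest, both above Pcdhgc3. Pcdh1 had a shorter-list peak in replicate 2 only and Pcdh12, known from vascular endothelium, in neither. The 39 Hox genes, another family in clusters, had peaks at few start sites. A peak in both shorter lists was found at 2 (Hoxa7 and Hoxd1, 5.13%), beside 52.2% of all genes, and 36 had one in neither.

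Neighbouring protein-coding genes outside the clusters mostly had a promoter peak. Of those that begin between the Pcdha1 start and the end of the gamma cluster, only Taf7 had one. The 18 considered are protein-coding genes, not members, that begin between 200 kb before the first member and 200 kb after the last. A peak in both shorter lists was found at 12 of them (66.7%), beside 52.2% of all protein-coding genes. Among the highest were Zmat2 (4.46 and 5.08 in replicates 1 and 2), Tmco6 (3.98 and 5.63) and Diaph1 (3.61 and 4.80). Taf7, a subunit gene of the general transcription factor TFIID between the beta and gamma clusters, had 3.06 and 4.07. Hars and Hars2, Ik and Ndufa2, and Hdac3 and Rell2 share a peak each. The 6 without a peak at the start of the gene record were Arap3, Dnd1, Slc25a2 and the gene models Gm37013, Gm37388 and Gm42416, which begin inside the alpha cluster. Another annotated start site of Arap3 had a shared region, with 0.770 in replicate 1 and 1.91 in replicate 2.

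Genes for the known regulators of the clusters had a promoter peak in both shorter lists for 14 of 18 (77.8%). The share over all genes was 52.2%. The highest were the cohesin subunit gene Smc3 (4.63 in replicate 1 and 7.37 in replicate 2) and the cohesin release factor gene Wapl (4.49 and 5.85). Rad21, another cohesin subunit, had 3.62 and 4.28, and Ctcf had 1.99 and 2.99. Dnmt1, Stag1 and Trim28 had no peak at the start of the gene record in either list, and Dnmt3a had one in the longer lists only. Of 10 signalling and processing partners, 8 had a shared peak (80%), beside the same 52.2% of all genes. The sheddase gene Adam10 was highest (5.32 and 4.98), while Ctnnb1 and Fyn had none. These counts use the start of the gene record, and genes with other start sites may have peaks there.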

How the data were processed

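Peaks, footprints and FDR intervals were called per library on mm10, per the deposited descriptions; aligner and callers were not given in the sources used here. Each peak value is a signal deposited by the authors, with its scaling not given. The FDR lists carry a q-value (a p-value adjusted for many tests) per interval, and the footprint lists a threshold of 0.01 in every row, as deposited by the authors. The members and lists were chosen with earlier results of these data known.

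Start sites were those of GENCODE M21 gene records on GRCm38.p6. Of the pair of gene records with the symbol Pcdha11, the one starting at 37005203 is called Pcdha10 here, after RefSeq. Members named with values were the 3 highest of each subgroup, all C-type genes, those with a peak in 1 replicate and the 2 most different between replicates in each direction. Overlap of peaks needed 1 bp, and footprints at promoters were counted if wholly inside the window. A pseudocount of 0.1 preceded log2 ranking. Peaks of both libraries were merged, and regions holding a peak of each were called shared. Inferred reads are the value over the step (tolerance 0.05), with intervals for counting error only. Uniqueness and motifs were read from the reference genome; no sequence of these genes is reported here. Overlap and motif counting were tested on simulated data. Alternatives varied the list, window, start site, overlap, peak strength, centring, motif window and replicate. Python 3.11.15, NumPy 2.4.6, SciPy 1.17.1, pandas 2.3.3 and Matplotlib 3.10.9 were used.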

Additional observations from a re-analysis of the deposited data

How the results depend on the processing

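With the longer lists, promoter peaks in both replicates rose to 13 members from the 5 of the shorter lists, with 4 in the beta cluster and 6 in the gamma cluster. With replicate 1 or replicate 2 left out, the count was 14 or 6, beside 54.6% or 53.8% of all genes, with the alpha cluster ranging between 2 and 5, the beta cluster between 0 and 6, the gamma cluster between 3 and 4 and distal regions of the locus between 22 and 31. Without centring, the median difference between replicates was -0.66 on the log2 scale, against -0.16. With 500 bp on either side of the start, CGCT was present in 100% of members and 85.9% of all genes. The other 54 of 63 alternatives stayed within the limits set. Among them were a window of 100 or 2000 bp, the start codon, any transcript start and the stronger 50% of peaks. The 54 include the median promoter value of members, which was 0 in both replicates under every setting and so had little room to move. They also include distal shared regions with the longer lists, at 24 against 16. With 2 libraries and values from as few as 17 inferred reads, little can be said of single beta promoters.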
